A study of Homo sapiens with 8 samples.

Results

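The genes described are 8 that are recurrently mutated, lost or activated in non-small cell lung cancer: BRAF, NF1, PIK3CA, STK11, KEAP1, SMARCA4, SMARCA2 and RB1. They were taken by gene name from the deposited gene counts, as 8 of 60106 genes listed, and all 8 were among the 24185 genes that passed the filter on low counts. RNA came from pneumospheres, floating tumour spheres grown without attachment in DMEM-F12 that held no serum but FGF, EGF and B-27. There were 4 established lines, of which H23, H820 and H1975 are labelled adenocarcinoma and EBC1 squamous cell carcinoma, with no engineered allele named. For every line the untreated spheres were sequenced as 1 library, and spheres exposed to PD-L1s as another. PD-L1s is a soluble form of the checkpoint ligand PD-L1, used at 25 µg/ml over 15 min, also without serum. Nothing in the labels says that the libraries of a line came from separate cultures. The p-values between lines therefore measure the spread between the libraries of a line, which may be technical, and not between tumours.

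These genes sit in pathways that restrain or drive growth. BRAF is a kinase that passes signals from RAS to MEK and ERK, NF1 encodes neurofibromin, which switches RAS off, and PIK3CA encodes the catalytic p110 alpha subunit of PI3 kinase. STK11 encodes LKB1, the kinase that activates AMPK, which responds to low energy, and the relatives of AMPK. KEAP1 holds the antioxidant factor NRF2 at a low level by sending it for degradation. SMARCA4 (BRG1) and SMARCA2 (BRM) are the alternative ATPases that drive SWI/SNF chromatin remodelling complexes, and RB1 holds back the E2F factors that start DNA replication. Suppressor genes can be inactivated by mutation with their messenger still present or by loss of the messenger itself, and counts per gene can show only the latter. As background, H23 is widely known as an STK11-mutant line, and the counts used here do not read mutations.

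The members are all protein-coding, and positions are on GRCh37. PIK3CA lies on chromosome 3 from 178866311 to 178957881, BRAF on chromosome 7 from 140419127 to 140624728, SMARCA2 on chromosome 9 from 2015186 to 2193624, RB1 on chromosome 13 from 48877862 to 49056026 and NF1 on chromosome 17 from 29421945 to 29704695. The other members lie on the short arm of chromosome 19, STK11 from 1205804 to 1228434, KEAP1 from 10596796 to 10614417 and SMARCA4 from 11071501 to 11173144. BRAF and KEAP1 are on the minus strand and the others on the plus strand. Values are counts over exons, whose summed length runs from 3121 bases for STK11 to 14405 bases for BRAF. No member shares exonic bases with another gene on its strand in the files' annotation.

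The promoters of SMARCA2 and STK11 are shown because in these genes the lowest line lay furthest below the next lowest. They are RefSeq sequences on GRCh38.p14, 250 bases before to 50 after a gene start on the plus strand, with each CG dinucleotide, the site of DNA methylation, in capitals.
SMARCA2, chr9:2015097-2015396: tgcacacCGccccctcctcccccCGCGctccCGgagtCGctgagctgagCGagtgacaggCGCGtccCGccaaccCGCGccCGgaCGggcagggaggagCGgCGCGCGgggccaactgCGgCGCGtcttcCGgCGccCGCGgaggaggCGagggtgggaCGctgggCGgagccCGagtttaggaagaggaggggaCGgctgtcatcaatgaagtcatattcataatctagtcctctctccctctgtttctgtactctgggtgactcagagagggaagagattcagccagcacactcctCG
STK11, chr19:1205528-1205827: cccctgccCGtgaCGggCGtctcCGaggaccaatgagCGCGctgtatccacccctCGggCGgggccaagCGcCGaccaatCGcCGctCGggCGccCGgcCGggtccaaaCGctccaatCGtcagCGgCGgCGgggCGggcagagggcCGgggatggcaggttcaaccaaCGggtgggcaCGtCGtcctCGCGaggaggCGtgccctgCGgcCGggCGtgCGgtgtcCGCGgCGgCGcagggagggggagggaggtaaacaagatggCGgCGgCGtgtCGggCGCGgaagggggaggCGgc
The SMARCA2 window holds 30 CG and the STK11 window 44, against a median of 14 over the 35116 promoters of the same length in the table, of which 96.0% hold at least 1. Windows of the other members hold 55 and 5 CG for SMARCA4, 36 and 40 for KEAP1, and 29 for NF1. Those of PIK3CA and BRAF hold 22 and 16. The only window listed for RB1, chr13:48476200-48476499, holds 0. Whether it covers the main start of RB1 was not checked, so it is left out of the comparison. The number of CG in the windows compared thus does not set SMARCA2 and STK11 apart. CG reads the same on both strands. SMARCA2 has further listed starts, whose windows hold 3, 4 and 9 CG, and counts per gene do not tell transcripts from different starts apart. DNA methylation was not analysed here.

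The longest coding reference transcripts of the related ATPase genes share no long exact stretch. The longest that those of SMARCA2 and SMARCA4 share is shown as a measure of their likeness. It is 18 bases long and starts at base 370 of the SMARCA2 and base 498 of the SMARCA4 transcript. Exons outside these transcripts and stretches alike with mismatches were not compared.
Shared run: ccacagcatgatggggcc
Windows of 50 bases that recur in transcripts of other genes made up 2.37% of the longest coding transcript of PIK3CA, 1.93% of BRAF and 2.40% of NF1, which has pseudogene copies. The share was 0.923% for SMARCA4, 0.128% for SMARCA2 and 0.0856% for STK11, and no such window was found for KEAP1 or RB1.

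Libraries held 5559870 to 27524854 counts, and the untreated libraries of EBC1 (5894946) and H820 (5559870) were far shallower than their treated partners. Levels are given in CPM, the counts scaled to a common library total by the TMM method, and a line's mean ± SD is over its untreated and treated library (n = 2). Markers were read to check the labels. The summed level of the 4 epithelial markers (EPCAM, CDH1, KRT8, KRT18) was 142 to 144 CPM in H23 and 875 to 3137 in the other lines, with CDH1 at 1.66 to 2.01 CPM in H23, and that of the 6 adenocarcinoma markers 7.24 to 7.39 in H23 and 154 to 679 elsewhere. KRT7 made up most of the latter sum in EBC1, H820 and H1975, but had 0.201 to 0.352 CPM in H23. NKX2-1, the lung lineage factor, had 5.46 to 5.68 CPM in H23, most of the sum there, 0 to 0.224 in EBC1 and 35.6 to 78.4 in H820 and H1975. In EBC1, labelled squamous, the squamous markers KRT5, KRT14 and DSG3 were at 0 and TP63 at 0.192 to 0.314 CPM, whereas TP63 was at 86.7 to 87.2 in H1975. The summed squamous list ran from 6.14 to 6.72 CPM in EBC1 and from 11.6 to 97.7 elsewhere. Of the 5 immune markers, PTPRC was at most 0.402 CPM, CD3E at most 0.0472 and MS4A1 at 0, while the lysosomal marker CD68 had 4.54 to 152, nearly all of the list's sum of 4.98 to 152. The endothelial markers VWF and CDH5 summed to at most 4.81 CPM, with PECAM1 not analysed here, and the 4 fibroblast markers to 19.6 to 57.2, most of it COL1A1. In such bulk libraries fewer cells of a type and less RNA per cell cannot be told apart.

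The first comparison asks how far the messengers differ between lines and whether any is nearly lost. SMARCA2 was nearly lost in H23, at 1.34 ± 0.325 CPM (SD, n = 2) against 28.8 ± 0.267 in EBC1, 47.5 ± 1.48 in H820 and 49.1 ± 0.365 in H1975. STK11 was also lowest in H23, SMARCA4 was lowest in H23 and EBC1, KEAP1 was lowest in EBC1 and H820, and RB1 was lowest in H1975. BRAF had its highest level in H820. NF1 and PIK3CA varied least, by 1.37-fold and 1.49-fold from the highest to the lowest line mean.

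**Figure D1:**
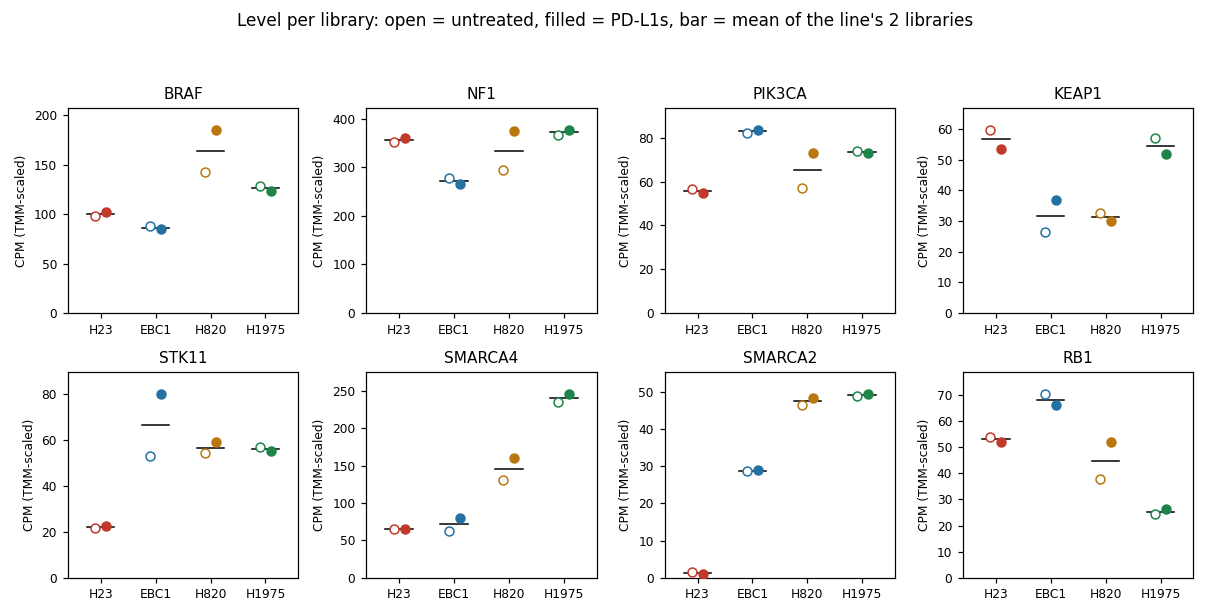
Level of each gene in TMM-scaled CPM (linear axis from 0) in the 4 lines, with open points for untreated spheres, filled points for PD-L1s and a bar for the mean of the line's 2 libraries. SMARCA2 in H23 sits at 1.11 to 1.57 CPM, far below the 28.6 to 49.3 CPM of the other lines.

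Over all lines together, 7 of 8 members differed at an adjusted p under 0.05 in edgeR's quasi-likelihood test, and so did 86.3% of the genes tested. NF1 did not pass (adjusted p = 0.0838). By pair of lines, 4 of 8 members differed between H23 and EBC1 (61.3% of all genes), 5 between H23 and H820 (58.9%), 5 between H23 and H1975 (62.6%), 4 between EBC1 and H820 (55.7%), 6 between EBC1 and H1975 (52.6%) and 4 between H820 and H1975 (54.5%). The share of members that differed was near that of all genes. Of the 28 differences between a pair of lines that passed, 21 kept their call and direction in all 15 alternatives run. A loss was counted where the lowest line's mean was at least 4-fold below the next lowest and that pair was called. A gene missing alike in more than 1 line cannot meet this rule, as with MARK1 and CCND2 below. SMARCA2 met this rule, as 1 of 8 members, and 11.7% of all genes tested met it in some line, so the count does not set these genes apart. Outside the rule came STK11, whose next lowest line was 2.55-fold above the lowest, and RB1 with 1.77-fold, and the ratio was 1.01-fold to 1.23-fold for the other members.

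BRAF had 98.4 and 102 CPM in untreated and treated H23, 87.6 and 85.2 in EBC1, 142 and 185 in H820, with 129 and 123 in H1975. Its H820 libraries lay above every other library. H820 exceeded EBC1 by log2 0.92 ± 0.159 (SE, adjusted p = 7.55e-05) and H23 by 0.71 ± 0.156 (adjusted p = 7.91e-04). Its excess over H1975, 0.38 ± 0.156, passed narrowly (adjusted p = 0.0490) and kept the call in 7 of 15 alternatives (adjusted p up to 0.465). H23 and H1975 were not separated (adjusted p = 0.0723), and neither were EBC1 and H23 (log2 difference 0.22, 95% interval -0.09 to 0.53). That last difference was 0.79 and passed when counts were scaled by library size alone (adjusted p = 1.22e-05).

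NF1 had the highest counts of the set, with 353 and 360 CPM in H23, 279 and 266 in EBC1, 295 and 374 in H820, with 367 and 377 in H1975. The EBC1 libraries were lowest, and the untreated H820 library lay close to them. Of its pairs of lines, EBC1 and H1975 passed, with NF1 1.37-fold higher in H1975 (log2 0.45 ± 0.168, adjusted p = 0.0311), a call kept in 9 of 15 alternatives. It was lost when either library of H23, EBC1 or H1975 was left out (adjusted p up to 0.244). H23 and EBC1 did not pass (log2 0.39 ± 0.168, adjusted p = 0.0533), and this held in 7 of 15 alternatives, while in the others the pair passed. PIK3CA had 56.8 and 54.9 CPM in H23, 82.4 and 83.7 in EBC1, 57.2 and 73.3 in H820, with 73.9 and 73.2 in H1975. Against H23 it was 1.48-fold higher in EBC1 (adjusted p = 3.16e-03) and 1.32-fold higher in H1975 (adjusted p = 0.0268), calls kept in 13 and 9 of 15 alternatives. With library size alone neither passed (adjusted p = 0.995 and 0.947), and PIK3CA was lower in H820 than in H23 by log2 0.13, so the place of H23 as the lowest line depends on the scaling. Per kilobase of exon, line means of NF1 ran from 19.03 to 26.01 CPM, above BRAF with 5.997 to 11.4 and PIK3CA with 6.09 to 9.05.

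Of 28 other genes of the RAS, RAF and MAPK pathway, 27 differed between lines (86.3% of all genes tested) and 1 met the loss rule (11.7%). RASGRP3, an activator of RAS, met it, with 0.151 CPM in H23 and 0.639 in H1975 against 4.63 in EBC1 and 32.7 in H820. MAP2K1, which encodes the MEK1 kinase that BRAF phosphorylates, had 262 CPM in EBC1 against 28.01 to 59.3 elsewhere, and RASA1, another brake on RAS, had 411 in EBC1 against 55.5 to 157. RRAS2, a RAS relative, was lowest in H23 with 9.32 CPM against 29.1 to 64.4. ARAF, a sister kinase of BRAF, had 25.6 to 72.2 CPM with the highest value in H1975. The same shares of all genes stand beside the counts of the lists below.

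Of 29 tested genes of the PI3K, AKT and mTOR pathway, 28 differed between lines and 3 met the loss rule. Among them INPP4B, a lipid phosphatase that opposes PI3K signalling, had 2.59 CPM in H23 against 12.9 to 154, and DEPTOR, an inhibitor bound to mTOR, 1.17 in EBC1 against 12.4 to 24.1. AKT2 had 573 CPM in H820 against 41.5 to 150, and the insulin receptor substrate IRS2 had 211 in EBC1 and 160 in H1975 against 12.97 in H23 and 27.53 in H820. PIK3CB, the sister catalytic subunit, had 67.4 to 88.3 CPM and did not pass (adjusted p = 0.130).

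STK11 had 21.5 and 22.4 CPM in H23, 53.0 and 79.6 in EBC1, 54.2 and 58.9 in H820, with 57.0 and 55.0 in H1975. Both H23 libraries lay far below the other libraries, which overlapped. From H23 to H1975, the next line, STK11 was 2.56-fold higher (log2 1.35 ± 0.164, adjusted p = 1.03e-06), and over the alternatives run this difference ranged from 0.97 to 1.51. The pairs among EBC1, H820 and H1975 did not pass (adjusted p = 0.227 to 0.987), though without the untreated EBC1 library EBC1 stood above H820 by 0.59 (adjusted p = 8.86e-03) and above H1975 by 0.54 (adjusted p = 0.0162). Per kilobase, STK11 stood at 7.03 CPM in H23, at or above 57.0% of tested protein-coding genes in the untreated library, so the messenger was reduced and not absent. The lower epithelial markers of H23 moved with this difference, and their part in it was not tested.

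Of 25 other genes of the LKB1 pathway, 24 differed between lines and 1 met the loss rule. LKB1 works in a complex with STRAD and MO25, encoded by STRADA and CAB39. CAB39 was lowest in H23, with 50.2 CPM against 198 in H1975, 247 in H820 and 375 in EBC1, whereas STRADA was highest in H23 with 29.5 against 14.0 to 20.4. Among the kinases that LKB1 activates, PRKAA2, the AMPK alpha 2 subunit, met the rule with 0.850 CPM in H1975 against 54.2 to 73.6 elsewhere. MARK1 had 0 counts in EBC1 and H1975, which allows up to 0.576 CPM in the shallowest of those libraries, against 6.49 CPM in H23 and 18.9 in H820. MARK4 had 332 CPM in H820 against 30.1 to 66.8.

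KEAP1 had 59.7 and 53.6 CPM in H23, 26.3 and 36.8 in EBC1, 32.5 and 29.9 in H820, with 57.0 and 51.9 in H1975. The lines fell into a higher pair, H23 and H1975, and a lower pair, EBC1 and H820, with no overlap between the pairs. H1975 was 1.69-fold above EBC1 (log2 0.76 ± 0.169, adjusted p = 1.02e-03, and 0.0525 without the untreated EBC1 library) and 1.75-fold above H820 (log2 0.81 ± 0.169, adjusted p = 5.40e-04). Within the lower pair the difference was log2 0.05 (95% interval -0.29 to 0.40) and within the higher pair 0.06 (-0.26 to 0.37), and the direction within the lower pair turned with library size alone, at -0.16. With that scaling the higher pair was separated, by 0.44 (adjusted p = 0.0130).

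All 13 of 13 KEAP1 and NRF2 partner genes differed between lines, and 0 met the loss rule. NFE2L2, which encodes NRF2, was highest in H23 with 251 CPM, followed by 149 in H820, 143 in H1975 and 71.2 in EBC1. CUL3, the scaffold of the ligase that KEAP1 guides, had 90.2 to 118 CPM. BACH1, a repressor at NRF2 sites, had 175 CPM in H820 against 35.0 to 101. The small MAF partners MAFF and MAFK were lowest in H23, at 10.9 CPM against 37.5 to 51.4 and at 44.96 against 63.97 to 240. PGAM5, a mitochondrial phosphatase that binds KEAP1, had 86.6 CPM in EBC1 and 67.5 in H23 against 26.8 and 32.2 in H820 and H1975.

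Of 31 tested NRF2 target genes, 30 differed between lines and 5 met the loss rule, all with H23 as the lowest line. Over all genes tested the shares were 86.3% and 11.7%. H23 was also the lowest line in 1077 of the 2841 genes that met the rule, the most of any line. The median log2 difference between a line and the mean of the others was highest in EBC1 (0.86), followed by H820 (0.33), H1975 (0.06) and H23 (-0.60), beside -0.08, 0.04, 0.03 and 0.10 over all genes tested. In EBC1 24 of 31 lay above 0 and in H23 10 of 31. The value in H1975 turned to -0.08 with library size alone, and the others kept their sign. ABCC3, an export pump, had 3.16 CPM in H23 against 54.1 to 118, AKR1C3, an aldo-keto reductase, 0.216 against 3.48 to 44.4, and TRIM16L 5.01 against 23.6 to 50.7. NQO1, the quinone reductase often read as a sign of NRF2 activity, went the other way and was highest in H23, with 543 CPM against 320 in EBC1, 102 in H820 and 167 in H1975. HMOX1, heme oxygenase 1, was highest in H1975 with 74.5 CPM against 13.6 to 21.4.

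SMARCA4 had 65.2 and 65.1 CPM in H23, 62.4 and 80.2 in EBC1, 130 and 161 in H820, with 235 and 245 in H1975. The libraries of H23 and EBC1 overlapped, and those of H820 and H1975 lay apart above them. H820 exceeded EBC1 2.04-fold (log2 1.03 ± 0.158, adjusted p = 2.28e-05) and H1975 exceeded H820 1.65-fold (log2 0.73 ± 0.154, adjusted p = 6.15e-04). H23 and EBC1 were not separated (log2 difference -0.13, 95% interval -0.43 to 0.18). With library size alone EBC1 became the lower of the pair and the difference passed (log2 -0.44 from H23 to EBC1, adjusted p = 4.66e-03).

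SMARCA2 had 39 counts in untreated and 22 in treated H23, or 1.57 CPM (95% exact Poisson interval 1.11 to 2.14, counting error only) and 1.11 CPM (0.693 to 1.67). Its level was 28.6 and 29.004 CPM in the EBC1 libraries, 46.4 and 48.5 CPM in those of H820, and 48.8 and 49.3 CPM in those of H1975. H23 lay more than an order of magnitude below every other library, and EBC1 lay between H23 and the upper pair. EBC1 exceeded H23 21.2-fold (log2 4.41 ± 0.208, adjusted p = 2.91e-12), which ranged from 3.85 to 4.77 over the alternatives, and H820 exceeded EBC1 1.65-fold (adjusted p = 8.72e-04). H820 and H1975 were not separated (log2 difference -0.04, 95% interval -0.34 to 0.26). Untreated H23 placed SMARCA2 at or above only 6.99% of tested protein-coding genes per kilobase, against 34.1% to 38.6% in the untreated libraries of the other lines.

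Set side by side per kilobase of exon, SMARCA4 exceeded SMARCA2 in every library. The length used is that of all annotated exons, 13966 bases for SMARCA2 and 7157 for SMARCA4. Their longest coding reference transcripts have 7061 and 5791 bases, so this length lowers the values of SMARCA2 more than those of SMARCA4. The shares between the genes, and the rank of SMARCA2 among genes given above, depend on the length chosen. SMARCA2 made up 1.22% and 0.864% of the summed level of both ATPases in untreated and treated H23, 19.02% and 15.6% in EBC1, 15.4% and 13.4% in H820, with 9.63% and 9.35% in H1975. The sum was 9.22 and 9.17 CPM per kilobase in H23, 10.8 and 13.3 in EBC1, 21.5 and 25.9 in H820, with 36.3 and 37.8 in H1975. H23 thus had both the lowest SMARCA2 and, with EBC1, the lowest SMARCA4, and no higher SMARCA4 stood beside its low SMARCA2. The epithelial markers were also lowest in H23, and their part in the difference was not tested.

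**Figure D2:**
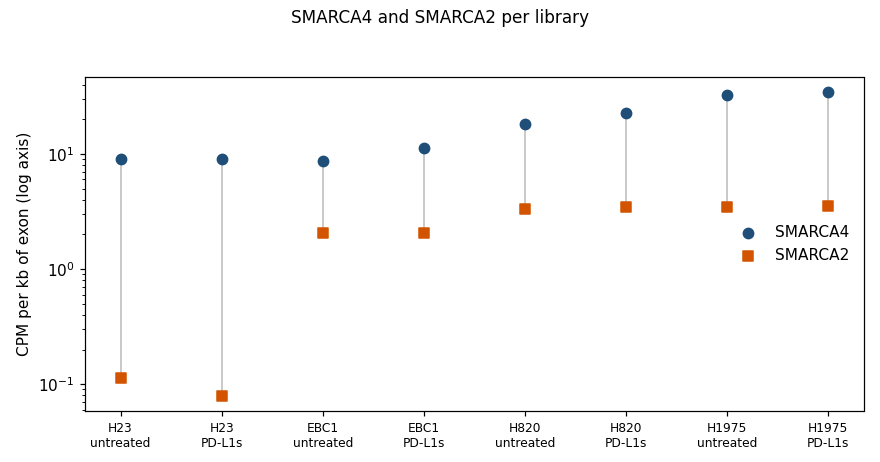
Levels of SMARCA4 (circles) and SMARCA2 (squares) in CPM per kilobase of exon, on a log axis, in the 8 libraries, with a grey line joining the genes of a library. SMARCA4 lies between 8.72 and 34.2 and SMARCA2 between 2.05 and 3.53 except in H23, where it is at 0.0792 to 0.112.

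Of 26 tested SWI/SNF subunit genes other than the ATPases, 25 differed between lines and 1 met the loss rule. SMARCD3, an alternative core subunit, met it with 2.48 CPM in EBC1 against 17.7 to 65.3. In H23 18 of 26 lay above the mean of the other lines, with a median log2 difference of 0.27 beside 0.10 over all genes. ARID1A, the subunit most often mutated in cancers, was highest in H23 with 336 CPM against 184 to 221, and so was ARID2, which belongs to the PBAF form, with 144 against 47.0 to 68.2. SS18L1 and BCL7C also had their highest values in H23, at 73.7 CPM against 22.7 to 43.7 and at 41.3 against 8.89 to 27.6. The core subunit SMARCB1 varied little, with 45.5 to 62.6 CPM (adjusted p = 0.0322).

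**Figure D3:**
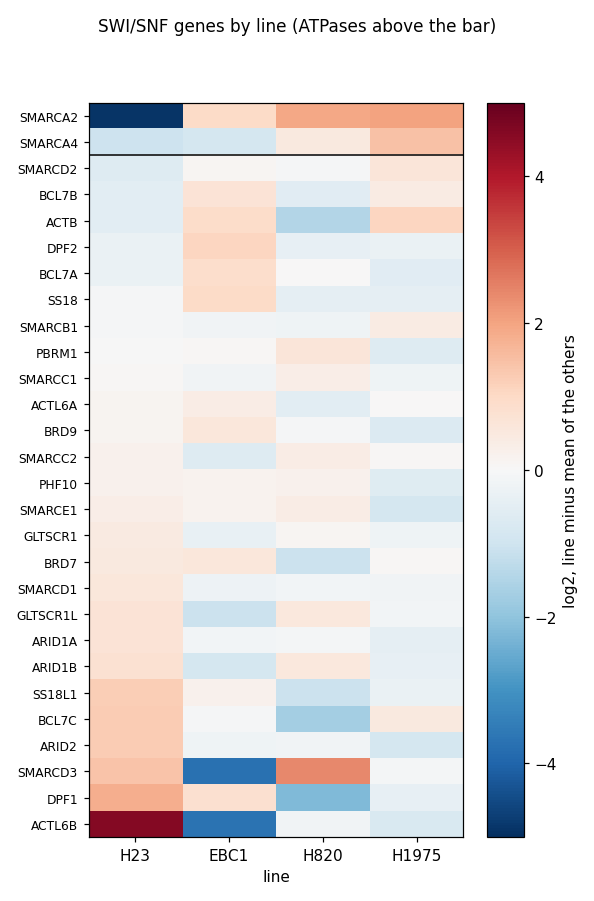
Fitted log2 difference of each SWI/SNF gene between a line and the mean of the other lines, blue for lower and red for higher, with both ATPases above the bar and the other subunits ordered by their value in H23. SMARCA2 in H23 (-4.90) is the deepest blue field, while 18 of 26 other subunits are above 0 in that line.

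RB1 had 53.9 and 51.9 CPM in H23, 70.1 and 66.0 in EBC1, 37.8 and 51.8 in H820, with 24.4 and 26.3 in H1975. The H1975 libraries lay below all others, and treated H820 lay just under both H23 libraries. RB1 was 1.78-fold higher in H820 than in H1975 (log2 0.83 ± 0.162, adjusted p = 2.69e-04), 2.09-fold higher in H23 (adjusted p = 1.21e-05) and 2.68-fold higher in EBC1 (adjusted p = 6.48e-07). EBC1 exceeded H820 1.51-fold (adjusted p = 4.50e-03). H23 was separated neither from H820 (adjusted p = 0.218) nor from EBC1 (adjusted p = 0.0580). With library size alone H23 lay above EBC1 by log2 0.21, so the place of EBC1 as the highest line depends on the scaling. The pair with H820 passed with library size alone and without treated H820 (adjusted p down to 9.75e-04), and the pair with EBC1 passed without either H820 library (adjusted p down to 0.0106). Even at its lowest, RB1 stood at 5.07 CPM per kilobase, at or above 45.3% of tested protein-coding genes in untreated H1975.

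Of 30 other genes of the RB pathway, 29 differed between lines and 2 met the loss rule. CDK6, a kinase that inactivates RB, met it with 7.75 CPM in H23 against 578 in EBC1, 183 in H820 and 165 in H1975. E2F7, a repressor of the E2F family, met it with 2.26 in H820 against 33.9 to 34.1. The untreated H820 library held 5 counts of E2F7 (0.847 CPM) and the treated one 79 (3.67 CPM). CDKN2A, which encodes the CDK inhibitor p16, had 186 CPM in H820 and 63.4 in H1975 against 16.5 in H23 and 5.97 in EBC1, and its neighbour CDKN2B 87.9 and 71.1 against 5.85 and 4.67. CCND2, a D cyclin, had 14.8 CPM in H23 and 8.04 in EBC1, 0.0232 in H820 and 0 counts in H1975. The RB relatives RBL1 and RBL2 were lowest in H820, at 13.3 CPM against 22.7 to 50.9 and at 54.8 against 96.1 to 141, as was E2F1, with 7.53 against 16.2 to 40.3.

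All 25 of 25 E2F target genes, which encode enzymes of DNA replication, differed between lines. Their median log2 difference from the mean of the other lines was highest in EBC1 (1.17), then H23 (0.77), H1975 (-0.45) and H820 (-1.37). In H820 0 of 25 lay above 0, in H1975 3 of 25, and in H23 and EBC1 24 of 25 each. The line with the lowest RB1, H1975, was not the line with the highest E2F target levels. EBC1, the line with the highest RB1, had the highest median. With library size alone H23 took both places. Its E2F target median was then 1.20 against 0.85 in EBC1. Its RB1 difference from the other lines was 0.75 against 0.47 in EBC1. These are 4 lines, and whether the RB1 level bears on these targets was not tested. The replication helicase subunit MCM4 had 218 CPM in H23 and 286 in EBC1 against 40.5 in H820 and 50.1 in H1975, and the thymidylate enzyme TYMS 148 and 64.6 against 7.97 and 17.2. GINS1, a replication fork protein, had 49.7 and 15.0 CPM in H23 and EBC1 against 4.27 and 16.0 in H820 and H1975. CDT1, a licensing factor, met the loss rule with 11.6 CPM in H820 against 51.2 to 74.5, as the 1 gene of its list. The H820 means cover unlike libraries. Untreated and treated H820 had 26.3 and 54.7 CPM for MCM4, 3.22 and 12.7 for TYMS, 2.88 and 5.67 for GINS1, and 6.94 and 16.4 for CDT1. For MCM4 treated H820 lay above the H1975 libraries (49.2 and 51.0).

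Counted once each over the 8 lists, 201 of 207 partner genes differed between lines, or 97.1%, and 14, or 6.76%, met the loss rule. Over all genes tested the shares were 86.3% and 11.7%, and the comparison is a description only.

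To see whether a low level was shared along the chromosome, each member was set beside the tested protein-coding genes starting within 1 Mb of it. For SMARCA2 there were 3 such genes. VLDLR, a lipoprotein receptor gene that starts 607 kb away, was also nearly lost in H23, with 1.43 CPM against 26.6 in EBC1, 65.6 in H820 and 35.0 in H1975, while PUM3 had 19.5 CPM against 21.2 to 38.0. For STK11 in H23 the member's log2 difference from the other lines was -1.44 and the median of its 73 neighbours -0.09, with 7 of 73 below STK11. That median was 0.35 with library size alone. For SMARCA4 in H23 the member's value was -1.05 against a median of 0.31 over 66 neighbours. For STK11 and SMARCA4 the low H23 level was thus not that of the typical gene beside them.

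Some members lay on the same side as their neighbours and others did not. KEAP1 had -0.50 in EBC1 and -0.58 in H820, and the medians of its 61 neighbours were -0.72, with 47 of 61 below 0, and -0.50, with 51 of 61 below 0. In H1975 KEAP1 had 0.50 and its neighbours 0.73, with 7 of 61 below 0. KEAP1 and SMARCA4 lie close together and share neighbours. RB1 had -1.11 in H1975 and its 9 neighbours a median of -0.64, with 8 of 9 below 0 and 0 below RB1 itself. BRAF had 0.67 in H820 and its 17 neighbours a median of 1.07, with 2 of 17 below 0. Each of these medians of KEAP1, RB1 and BRAF neighbours kept its sign under TMM, DESeq2 size factors and library size alone. On the other side, RB1 in EBC1 had 0.79 beside a neighbour median of 0.0061, PIK3CA in H23 had -0.40 beside 0.19 (2 of 10 below 0), and NF1 in EBC1 had -0.38 beside 0.17, a median that was -0.15 with library size alone. In H820, SMARCA4 had 0.48 beside -0.56 and STK11 0.38 beside -0.60. DNA copy number was not analysed here.

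**Figure D4:**
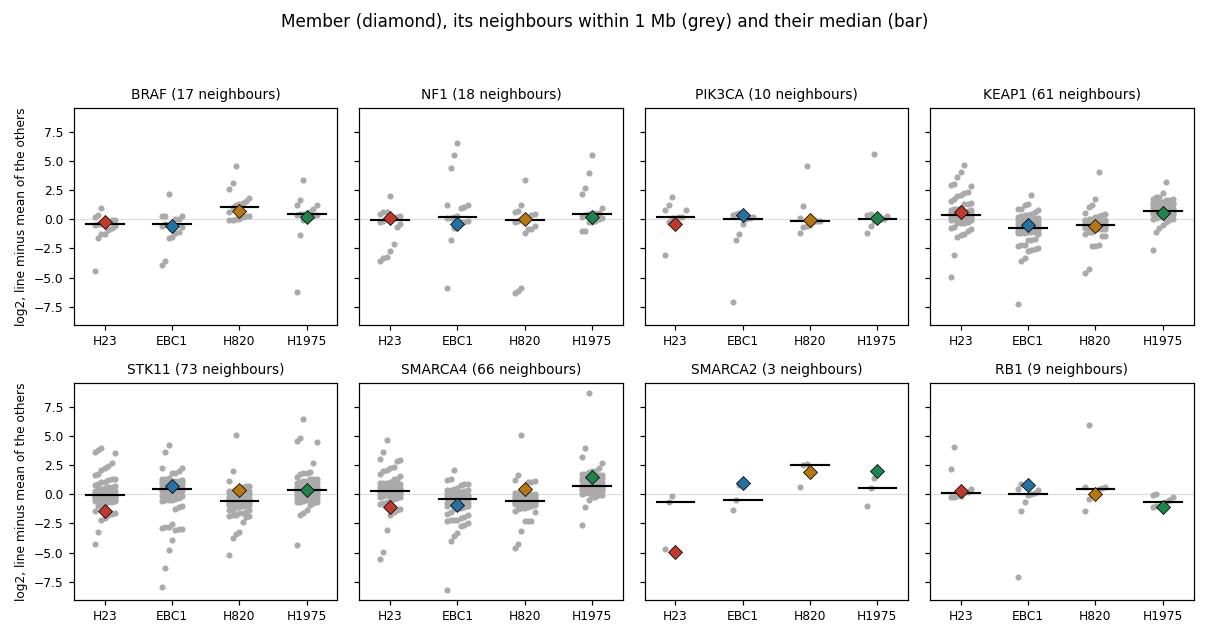
Fitted log2 difference between a line and the mean of the other lines for each member (diamond), the tested protein-coding genes within 1 Mb (grey points) and their median (bar). The diamonds of KEAP1 in EBC1 and H820 and of RB1 in H1975 lie near or below negative medians, whereas those of STK11 (-1.44) and SMARCA4 (-1.05) in H23 lie well below medians of -0.09 and 0.31.

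The second comparison asks whether the messengers differed after 15 min of PD-L1s, with the 4 lines as replicates. None of the 8 members passed, and 0.0372% of all genes tested did, 7 higher and 2 lower, with 873 at an unadjusted p under 0.05. No member had an unadjusted p under 0.05 either, the lowest being 0.126 for SMARCA4 and 0.154 for STK11. DESeq2 and limma-voom also called 0 members. The fitted log2 differences ran from -0.02 ± 0.121 (SE, n = 4 lines) for SMARCA2 to 0.18 ± 0.110 for SMARCA4, with adjusted p-values of 0.9995 to 0.9997 in edgeR's test. STK11 had 0.17 ± 0.116. Treated libraries were higher in 3 of 4 lines for STK11, SMARCA4, NF1 and SMARCA2, in 2 for BRAF, PIK3CA and RB1, and in 1 for KEAP1. None of the 207 partner genes passed. The fitted difference was above 0 for 25 of 25 E2F targets (median 0.24) and for 7 of 31 NRF2 targets (median -0.07). Medians of the other lists ran from 0.04 to 0.07, beside 0.04 over all genes. The lists were not tested, and the values include the lines of uneven depth.

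A single line has only 1 library of each condition, so its own difference has no replicate check. In H23 and H1975, whose pairs had similar depth, the members moved by at most 0.16 on the log2 scale, apart from SMARCA2 in H23 with -0.50, which rests on 39 against 22 counts. In H820 RB1 was at 0.46, BRAF 0.38, PIK3CA 0.36, NF1 0.35 and SMARCA4 0.30. In EBC1 STK11 was at 0.59, KEAP1 0.48 and SMARCA4 0.36. Both of these lines had a treated library several times deeper than the untreated one, and the median absolute log2 difference of genes with at least 50 counts was 0.173 in EBC1 and 0.251 in H820 against 0.0997 in H23 and 0.0915 in H1975. Depth moved with these differences, and its part in them was not tested. A test of EBC1's response against that of the other lines called no member (adjusted p = 1 for each), with unadjusted p-values of 0.0204 for KEAP1 and 0.0322 for STK11.

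**Figure D5:**
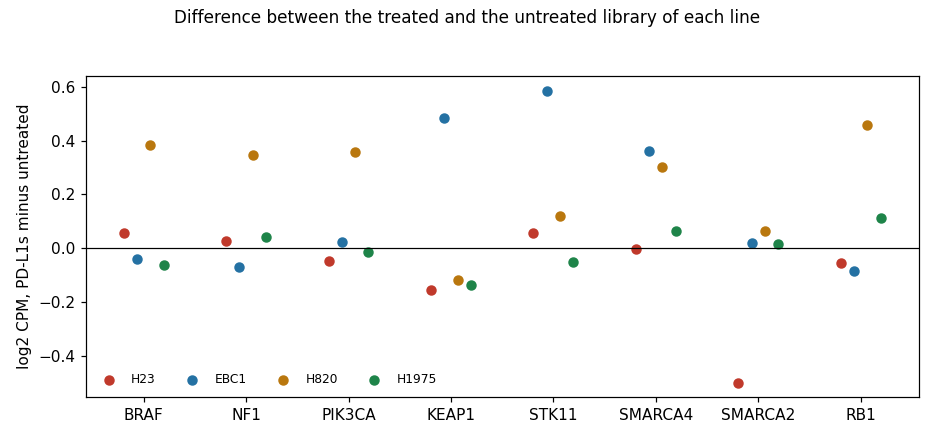
Difference in log2 CPM between the PD-L1s and the untreated library of each line, 1 point per line and gene. Points of H23 (red) and H1975 (green) lie near 0 except SMARCA2 in H23 (-0.50), while EBC1 (blue) and H820 (orange), with uneven depth, reach 0.59 and 0.46.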

How the data were processed

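RNA of 8 sphere libraries was measured, and the authors deposited raw counts of read pairs per gene with each gene's exonic length. The aligner was STAR 2.7.3a and the build GRCh37 (hg19), per the submitters' processing notes. FeatureCounts from Subread 2.0.0 assigned pairs to exons of GENCODE release 28 (a version lifted to GRCh37) with reversed strand, per the file headers, using primary alignments of mapping quality of at least 1, and a pair overlapping several genes was counted for each. Total RNA libraries depleted of ribosomal RNA also hold unspliced RNA.

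Tests on counts used the quasi-likelihood method of edgeR 4.0.16 in R 4.3.3 (TMM, minimum count of 10 by line, terms line and treatment). P-values were two-sided, with Benjamini-Hochberg adjustment over 24185 genes, and a gene was called below 0.05. Libraries are paired by line, as labelled. Contrasts of a line with the mean of the others come from the same fit and are given without a test. Alternatives were DESeq2 1.42.0, limma-voom (limma 3.58.1), other scalings and filters, thinning to equal depth, the line left out and libraries left out. The method was tested on simulated data. The members, the 8 partner lists and 28 cell markers were chosen with earlier results of these data known. The genes named are the members, up to 4 genes per list by p between lines, a fixed set of partners, and for each member 3 genes of like pattern. CDT1, DEPTOR and E2F7 were named outside this rule after their values were seen, because they met the loss rule. Some genes that the rule would name are not reported here. Promoters are RefSeq entries on GRCh38.p14, and transcripts for the copy search came from a later GENCODE release.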

Additional observations from a re-analysis of the deposited data

Results flagged for a closer look

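In the 16 groups of 4 libraries formed by the 8 members and the 2 conditions, 4 held a library whose gap to the nearest other, as a share of the group's range on the log2 CPM scale, passed Dixon's 95% limit. Chance marks about 1 in 20 such groups. The lowest library was H23 for SMARCA2 in untreated spheres (0.845 of the range) and after PD-L1s (0.860), and for STK11 in untreated spheres (0.926). For NF1 after PD-L1s it was EBC1 (0.863), at 266 CPM against 360 to 377 in the other treated libraries. The libraries of a group are different lines, so these are the differences between lines already given.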

How the results depend on the processing

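The counts of members called between lines (7), between pairs of lines (28), by the loss rule (1) and for treatment (0) ran from 6 to 8 and from 24 to 34 and stayed at 1 and at 0 over the alternatives. Against the next lowest line, SMARCA2 and STK11 in H23 and RB1 in H1975 kept their direction and call in each. Scaling by library size alone shifted the median of all genes by 0.44 in H23 and -0.32 in EBC1 (log2), so small differences involving these lines depend on scaling, and depth limits small differences in untreated EBC1 and H820.

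Over all genes, calls between lines went from 20861 to 13874 and genes by the loss rule from 2841 to 1787 with counts thinned to equal depth, where fewer genes were tested. Calls for treatment went from 9 to 28 with H23 and H1975 only, 15 with library size alone, 3 at a minimum count of 50, 98 with no filter, 2 when thinned, and 5 to 20 with a line left out (5 without EBC1, 20 without H23, 19 without H1975). With no replicate block, that is without the pairing by line, 0 genes were called, and this changed no call of a member.

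Between lines, with library size alone KEAP1 had -0.16 for EBC1 minus H820, PIK3CA -0.13 for H820 minus H23 and SMARCA4 -0.44 for EBC1 minus H23. Thinned values were -0.0692 for KEAP1 and -0.0198 for SMARCA4. With a library left out KEAP1 ran from -0.26 to 0.43 and SMARCA4 from -0.0470 to 0.264. NF1 passed between H820 and EBC1 (0.50 with library size alone, 0.46 without untreated H820) and PIK3CA between H820 and H23 without untreated H820 (0.41).

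For treatment, signs of uncalled values near 0 turned. With H23 and H1975 only they were -0.0014 for BRAF, -0.0284 for PIK3CA and -0.0018 for STK11. With library size alone PIK3CA had -5.48e-04. With no filter KEAP1 had 0.0437 and SMARCA2 0.0251, with thinning KEAP1 0.0082, NF1 -0.0076 and SMARCA2 0.0135, with limma-voom SMARCA2 0.0040, and with no replicate block SMARCA2 0.0301. With a line left out the ranges were -0.0186 to 0.105 for BRAF, -0.164 to 0.0345 for KEAP1, -0.0034 to 0.110 for NF1, -0.0182 to 0.0914 for PIK3CA, -0.0153 to 0.135 for RB1 and -0.0824 to 0.0058 for SMARCA2. The cause was not tested.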

Other observations

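Of 11073 genes whose mean log2 CPM reached 3, those whose log2 CPM followed a member most closely over the 8 libraries were named by Pearson r, as a description. The libraries share lines, so r rests in effect on 4 lines, and 75 to 685 genes per member had r over 0.9. For SMARCA2 they were STK17B (r = 0.998), a kinase linked to cell death, FUT3 (0.997), a fucosyltransferase, and MGLL (0.997), a lipase of monoglycerides. Each was lowest in H23, at 7.74, 1.09 and 0.844 CPM, against 49.96 to 64.7, 35.4 to 57.0 and 41.3 to 85.7 in the other lines. For STK11 they were GATA6 (0.990), an endodermal transcription factor with 0.954 CPM in H23 and 13.1 to 19.3 elsewhere, PROSER2 (0.990) and KIAA1671 (0.989).

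For SMARCA4 the closest were ZBTB38 (0.994), a protein that binds methylated DNA, ATP2B4 (0.992), a calcium pump, and CPNE3 (0.991). ATP2B4 was highest in H1975 with 495 CPM, followed by H820 with 253, EBC1 with 113 and H23 with 86.3. For KEAP1 they were NECAB3 (0.988), PIAS4 (0.987), a SUMO ligase, and ATOX1 (0.983), a copper chaperone. PIAS4 had 41.1 CPM in H23 and 39.98 in H1975 against 20.6 in EBC1 and 20.2 in H820. For RB1 they were NUP37 (0.988), a nuclear pore protein, MTF2 (0.986), an accessory Polycomb protein, and EMSY (0.984). MTF2 had 19.9 CPM in H1975 against 39.8 to 87.2 elsewhere.

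For BRAF the closest were ATL2 (0.995), CHM (0.989) and PDLIM5 (0.985), for NF1 MON2 (0.976), PDCD4 (0.975) and NUP50 (0.975), and for PIK3CA C4orf3 (0.996), the ribosomal protein gene RPL23A (0.994) and GPBP1 (0.991). PDCD4 had 32.2 CPM in EBC1, the line with the lowest NF1, against 65.4 to 83.7.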
